A study of Mus musculus with 18 samples.

Results

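The response of naive CD4+ T cells to stimulation was compared between Creld1 conditional knockout (cKO) cells and control cells. The measure was an interaction, that is the log2 difference between stimulated and unstimulated Creld1 cKO cells minus the same difference in control cells. A positive value means that a gene went up more, or down less, on stimulation in Creld1 cKO cells. All genes with a linear expression value of at least 10 in 3 or more libraries were included, which were 10877 of 15137 genes. Expression was measured by RNA sequencing of cells sorted from mouse spleen as naive CD4+ T cells by surface markers. The groups compared were Creld1 cKO cells stimulated, Creld1 cKO cells unstimulated, control cells stimulated and control cells unstimulated, with 3 libraries each and 12 in all. Stimulation was 8 h of culture with anti-CD3 and anti-CD28 antibodies at 1 µg/ml, and unstimulated cells were cultured for the same 8 h. All mice were on the C57BL/6J background, and the sources used here do not give their age. The conditional knockout used a Cre recombinase under CD4 control, which acts in T cells from their development onwards. The sources used here do not say whether control mice carried Cre or a floxed allele. A further 6 libraries of freshly isolated cells, 3 of each genotype, entered the fit for the estimate of the spread, making 18.

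Naive T cells that meet antibodies against CD3 and CD28 signal through the T cell receptor complex, the kinases Lck and Zap70, calcium entry with calcineurin and NFAT, Ras and MAP kinases, and NF-kB. Early transcription factor genes such as those of the Egr, Nr4a and AP-1 families are induced first, and genes for cytokines, cytokine receptors, ribosome biogenesis and metabolism follow. Creld1 is the gene of a cysteine-rich membrane protein that carries EGF-like domains.

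The libraries carried the transcripts of naive CD4+ T cells. Over the 12 cultured libraries the log2 value lay between 12.45 and 12.93 for Cd4 and between 11.36 and 11.80 for Cd3e of the receptor complex. Cd8a of cytotoxic T cells (1.39 to 1.92) and Lyz2 of myeloid cells (2.36 to 3.16) lay under the minimum level of 3.32 in each of the 12. Within a group the 3 libraries have 1 mouse label in common, and each group has a label of its own. Separate animals are not stated, so a p-value reflects the spread among these libraries, which may be technical. Differences between groups therefore cannot be told apart from differences between mouse labels. In bulk RNA, fewer cells of a type and less RNA per cell cannot be told apart. Library 3 of the freshly isolated Creld1 cKO cells stood apart from the other libraries of its group. It does not enter any interaction value but widens the estimate of the spread, so adjusted p-values are also given without it where a call changes. The fit without this library was added after seeing the data.

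Creld1 itself (chromosome 6, 113483297 to 113493343, plus strand, GRCm38) had log2 values of 4.14, 4.62 and 4.37 in stimulated and 3.95, 4.33 and 3.82 in unstimulated Creld1 cKO cells. In control cells the values were 4.41, 5.10 and 4.71 after stimulated and 4.81, 4.88 and 5.40 after unstimulated culture. The unstimulated groups did not overlap, whereas 2 of the 3 stimulated Creld1 cKO values lay below the lowest stimulated control value and 1 lay within the control range. The interaction was 0.64 ± 0.33 (SE), which did not pass the test across all genes (limma adjusted p = 0.200). The exact permutation test over the 12 libraries gave a two-sided p of 0.295. It permutes genotype labels within each culture condition, so its null is no genotype difference in either condition. For the deleted gene that p is no test of the interaction alone. The interaction was -0.04 once a measure of each library's GC content, explained further down, entered the model. The deposited values are per gene and do not show the deleted exons, so the remaining level is no check of the deletion.

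A single gene differed in its response between the genotypes at an adjusted p under 0.05, and its response was lower in Creld1 cKO cells. This was 1 of 10877 genes (0.00919%) for a lower and 0 (0%) for a higher response in limma's test with Benjamini-Hochberg adjustment. The gene was Acot4, which encodes a peroxisomal acyl-CoA thioesterase, an enzyme that releases coenzyme A from its acyl esters. Acot4 lies on chromosome 12 (84038379 to 84048601, plus strand, GRCm38). It is expressed at a low level here, under the mean level of log2(100) used for naming genes, and was named after its values were seen.

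Acot4 had log2 values of 4.46, 4.31 and 4.41 in stimulated Creld1 cKO cells and 5.40, 5.34 and 5.50 in unstimulated Creld1 cKO cells. In control cells it had 5.17, 5.29 and 5.00 after stimulation and 4.46, 4.86 and 4.41 without it. All 3 stimulated libraries lay below all 3 unstimulated ones in Creld1 cKO cells, and all 3 lay above them in control cells. Acot4 fell by 1.02 ± 0.13 in Creld1 cKO cells (SE, limma adjusted p = 0.00185), whereas its response in control cells was 0.58 ± 0.13 (adjusted p = 0.0869). The interaction was -1.60 ± 0.18 (SE, 95% interval -1.99 to -1.21, limma adjusted p = 0.00247). The exact permutation test, with genotype labels permuted within each culture condition, gave p = 0.005 (two-sided, 12 libraries), the smallest that its 400 assignments can give. Acot4 was picked from all tested genes by its values in the same libraries, so this p is unadjusted and adds no separate support. With each library's GC slope in the model the interaction of Acot4 was -1.61 (adjusted p = 0.0104), and it was called when any one of the 18 libraries was left out (-1.74 to -1.52). It was not called with the GC slope and a block of library numbers together (-1.67, adjusted p = 0.055), nor with the GC slope in a fit of the 12 cultured libraries alone (-1.54, adjusted p = 0.556).

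Acot4 is one of a cluster of closely related thioesterase genes on chromosome 12, so the counting could have split reads between copies, and its values are uncertain in that respect. Its neighbour Acot2, which encodes a mitochondrial enzyme of the family, did not pass the test. Acot2 had 6.39, 6.71 and 6.69 in stimulated and 6.02, 6.47 and 6.30 in unstimulated Creld1 cKO cells, against 6.16, 6.66 and 6.55 in stimulated and 6.55, 6.77 and 7.01 in unstimulated control cells. The interaction of Acot2 was 0.65 ± 0.28 (limma adjusted p = 0.168) and 0.05 with the GC slope in the model.

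Promoters of Acot4, the gene called for the interaction, and of Egr2, a gene that rose in both genotypes, are shown for comparison. Both are RefSeq sequences of GRCm38.p6, 300 bases across an annotated start. Acot4 lies at chr12:84038129-84038428 and Egr2 at chr10:67537619-67537918, both on the plus strand, and the Egr2 window is the first of those with most motif matches among 5 listed for that gene. Capitals mark CACGTG (an E-box), TGACG on either strand (the core of a cAMP response element) and the CArG box bound by serum response factor, none of which overlap here.
Acot4: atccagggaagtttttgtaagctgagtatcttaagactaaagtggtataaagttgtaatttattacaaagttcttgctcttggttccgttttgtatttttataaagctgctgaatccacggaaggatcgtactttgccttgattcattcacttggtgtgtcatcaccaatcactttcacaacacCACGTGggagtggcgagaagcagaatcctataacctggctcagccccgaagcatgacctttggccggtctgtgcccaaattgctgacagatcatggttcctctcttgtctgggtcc
Egr2: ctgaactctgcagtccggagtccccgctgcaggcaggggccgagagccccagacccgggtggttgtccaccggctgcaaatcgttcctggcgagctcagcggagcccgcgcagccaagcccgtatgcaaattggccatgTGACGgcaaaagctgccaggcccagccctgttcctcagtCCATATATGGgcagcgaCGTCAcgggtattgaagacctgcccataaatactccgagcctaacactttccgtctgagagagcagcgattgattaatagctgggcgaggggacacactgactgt
The Acot4 window held 1 CACGTG, a string found in 7.17% of 32544 such windows, and 0 matches to the other motifs. The Egr2 window held 2 matches to TGACG and 1 CArG box, which occurred in 20.9% and 1.64% of all windows. As that window was picked for its matches, these shares are no yardstick for it. The matches describe these letters only. GC content was 44% in the Acot4 window and 60% in the Egr2 window.

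**Figure D1:**
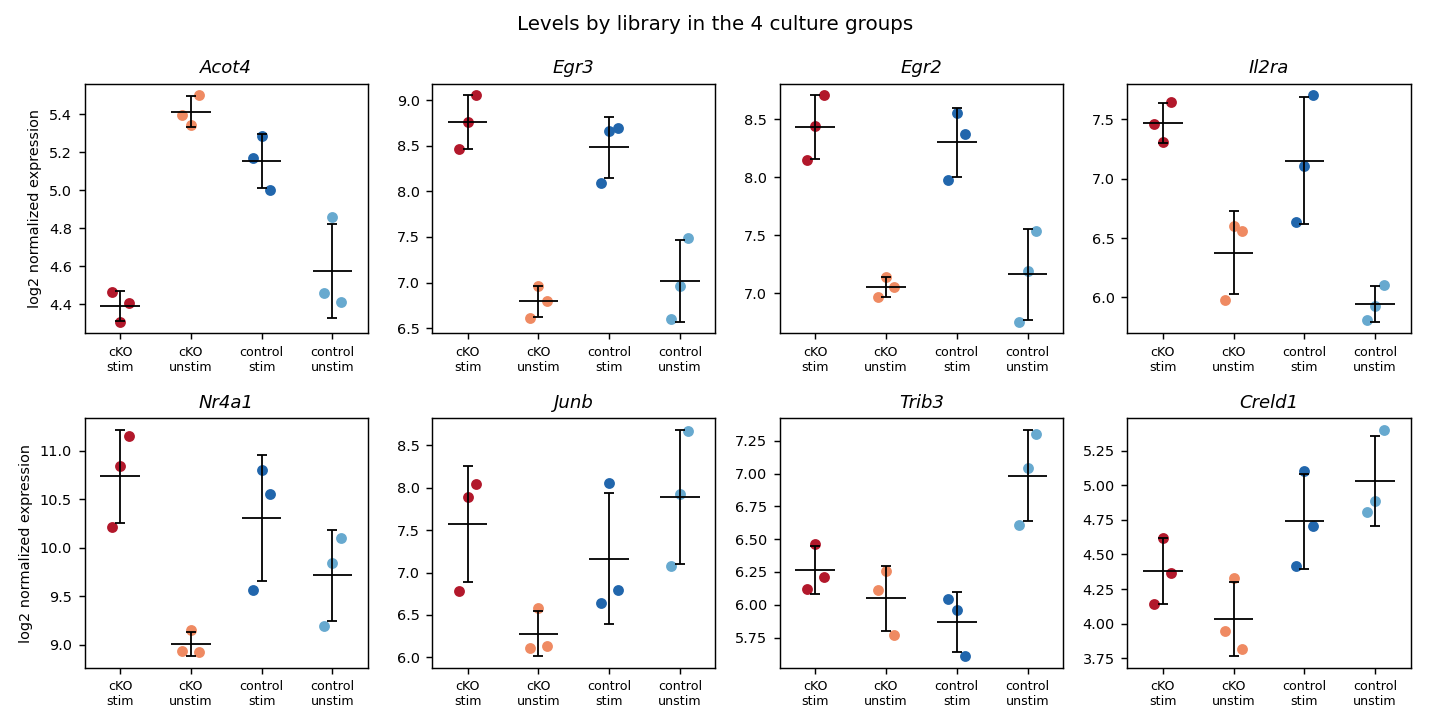
Deposited log2 values (vertical axis) of 8 genes in the 12 cultured libraries, with 1 point per library, the group mean as a horizontal line and the SD as bars (n = 3). Acot4 was low in stimulated and high in unstimulated Creld1 cKO cells and the reverse in control cells, while Egr3, Egr2 and Il2ra were high in the stimulated groups of both genotypes.

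Stimulation itself was called for 31 genes in Creld1 cKO cells, 30 of them higher (0.276% of tested genes) and 1 lower (0.00919%), and for 38 genes in control cells, 34 higher (0.313%) and 4 lower (0.0368%). Of these, 12 were called in both genotypes, which is 38.7% of the Creld1 cKO list and 31.6% of the control list. They were the transcription factor genes Egr1, Egr2 and Egr3, the signalling inhibitor genes Dusp6, Spred2 and Sla, the surface receptor genes Ccr4, Slamf1 and Tnfrsf19, and Bcl2a1b, Cyp51 and Sytl2, all named because they were called. Among the 57 genes called in either genotype, 55 had the same sign in both and 28 had the larger change in Creld1 cKO cells. The opposite signs were those of Acot4 and Trib3. The shares of all tested genes for these counts were not worked out. An interaction with an unadjusted limma p under 0.05 was found for 18 of the 57, beside 28% of all tested genes. A gene called in 1 genotype alone is not thereby shown to differ between them, and Acot4 was the 1 gene that passed the test of that difference over the 18 libraries. The counts for stimulation were not stable, since leaving out a single library gave 11 to 336 genes in Creld1 cKO and 4 to 124 in control cells. The higher counts came without library 3 of the freshly isolated Creld1 cKO cells, the count of 11 without unstimulated Creld1 cKO library 3 and that of 4 without stimulated control library 3. The 12 cultured libraries alone gave 882 and 151 genes, in Creld1 cKO and control cells.

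Egr3, a transcription factor of the early response, had log2 values of 8.47, 8.76 and 9.06 in stimulated and 6.62, 6.96 and 6.80 in unstimulated Creld1 cKO cells. The control values were 8.10, 8.66 and 8.69 with and 6.6, 6.97 and 7.49 without stimulation. Stimulated and unstimulated libraries were well separated in both genotypes, by 1.97 ± 0.20 in Creld1 cKO cells (SE, limma adjusted p = 0.000284) and 1.46 ± 0.20 in control cells (adjusted p = 0.00527). The interaction of 0.51 ± 0.29 did not pass (adjusted p = 0.230).

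Egr1 and Egr2, transcription factors of the same family, also rose in both genotypes. Egr1 rose by 1.86 ± 0.19 in Creld1 cKO and 1.25 ± 0.19 in control cells (limma adjusted p = 0.000284 and 0.00803), with an interaction of 0.60 ± 0.27 (adjusted p = 0.169). Egr2 rose by 1.38 ± 0.19 and 1.14 ± 0.19 (Creld1 cKO and control, adjusted p = 0.00304 and 0.0188), with an interaction of 0.24 ± 0.28 (adjusted p = 0.534). Dusp6, a phosphatase that turns off Erk, rose by 0.79 ± 0.11 and 0.71 ± 0.11 in the same order, with an interaction of 0.07 ± 0.15 and a 95% interval of -0.25 to 0.40.

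Il2ra, Irf4, Cd69 and Tnfrsf9 gave intervals that included 0. Il2ra, the alpha chain of the interleukin 2 receptor, had values of 7.46, 7.31 and 7.64 in stimulated and 5.98, 6.6 and 6.56 in unstimulated Creld1 cKO cells, against 6.64, 7.10 and 7.70 in stimulated and 5.81, 5.93 and 6.11 in unstimulated control cells. Stimulated libraries lay above unstimulated ones in both genotypes, and the interaction was -0.11 ± 0.32 (95% interval -0.79 to 0.57). Irf4, a transcription factor of effector differentiation, had an interaction of -0.08 ± 0.31 (-0.73 to 0.57), and Cd69, an early surface marker, one of -0.15 ± 0.17 (-0.51 to 0.21). Tnfrsf9, the co-stimulatory receptor 4-1BB, had one of 0.18 ± 0.43 (-0.73 to 1.09). The intervals leave room for differences of this size in either direction.

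Of the 34 early T cell receptor target genes, 32 were tested and 0 were called for the interaction. Their median response was 0.68 in Creld1 cKO and 0.32 in control cells, and their median interaction was 0.41, beside 0.01 over all tested genes. Interaction values were above 0 for 25 of the 32, against 51.2% of all tested genes. An unadjusted p under 0.05 was found for 10 higher and 0 lower members, beside 19.2% and 8.84% of all tested genes. Responses of single libraries did not overlap between the genotypes for 17 higher and 1 lower member, beside 33.2% and 25.5% of all tested genes. Here each stimulated library was set against the mean of the unstimulated libraries of its genotype.

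Large interactions in the list came with high GC content, which was 62.58% for Junb and 56.95% for Nr4a1, beside a list median of 52.49%. Junb, an AP-1 subunit, had 6.78, 7.89 and 8.04 in stimulated and 6.11, 6.59 and 6.13 in unstimulated Creld1 cKO cells, against 6.64, 8.06 and 6.79 in stimulated and 7.08, 7.93 and 8.67 in unstimulated control cells. The groups spread widely, and the interaction of Junb was 2.02 ± 0.93 (limma adjusted p = 0.174, or 0.0448 without fresh Creld1 cKO library 3). Nr4a1, a nuclear receptor induced by receptor signalling, had 10.21, 10.84 and 11.16 in stimulated and 8.94, 9.15 and 8.93 in unstimulated Creld1 cKO cells. Its control values were 9.57, 10.80 and 10.55 with and 9.19, 9.85 and 10.10 without stimulation, and its interaction was 1.14 ± 0.59 (adjusted p = 0.203). Once the GC slope entered the model the values were -0.25 for Junb, -0.33 for Nr4a1 and -0.09 for the median of the list. The sign of the list median thus depended on that term, and it was 0.06 after a spline on GC content was removed from each library.

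Responses in both genotypes were set against each other across genes, which have no libraries in common here. Over the 10877 tested genes, which are not independent of each other, Pearson's r was -0.461 and Spearman's rho -0.487. Over the 32 early genes r was 0.585 and rho 0.505. Under the model with the GC slope r was 0.343 over all tested genes and 0.918 over the early genes. In that model both responses share the same slope coefficient per gene, estimated from all 18 libraries, so their errors are tied. These values are descriptions, and depth and base composition are shared by the genes of a library.

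**Figure D2:**
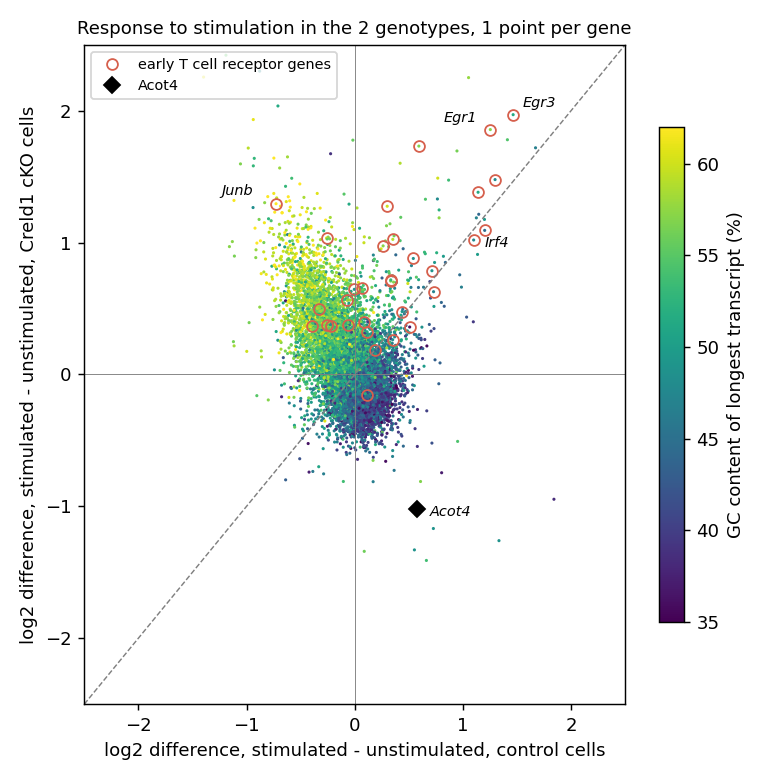
Log2 response to stimulation in Creld1 cKO cells (vertical axis) against control cells (horizontal axis), with 1 point per tested gene coloured by the GC content of its longest transcript. The dashed line marks equal responses, open circles mark the 32 early genes, and the diamond marks Acot4, at -1.02 in Creld1 cKO and 0.58 in control cells; genes of high GC content lie towards the upper left.

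The interaction followed the GC content of transcripts over the whole range. Genes were placed in 5 bins by the GC content of their longest transcript. In the lowest bin (30.96% to 43.33% GC, 2169 genes) the median response was -0.19 in Creld1 cKO and 0.13 in control cells, and 7.42% of interactions were above 0. In the highest bin (55.08% to 69.45% GC, 2161 genes) the median response was 0.41 in Creld1 cKO and -0.29 in control cells, and 96.3% of interactions were above 0. The median interaction increased from bin to bin, being -0.32, -0.19, -0.01, 0.27 and 0.71.

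Each library was given a GC slope, the slope of its log2 deviations from the gene means per SD of transcript GC content. The slopes were -0.03, 0.15 and 0.15 in stimulated and -0.13, -0.07 and -0.19 in unstimulated Creld1 cKO libraries, and -0.12, 0.13 and 0.003 in stimulated and 0.06, 0.15 and 0.24 in unstimulated control libraries. Unstimulated Creld1 cKO libraries all lay below unstimulated control libraries, and the stimulated groups overlapped. The interaction of the slope was 0.36 (exact permutation test, two-sided p = 0.03, 12 libraries). Without library 1 of the stimulated control cells it was 0.30 with an exact p of 0.055. Without library 2 or library 3 of the stimulated Creld1 cKO cells it was 0.33, with an exact p of 0.05 in each case. The slope was chosen with earlier results of these data known, in which it differed between the genotypes in unstimulated culture. These p-values are therefore not those of an independent test. Nor do they test the interaction alone, since the null is no genotype difference in either culture condition.

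Once the slope was a covariate, the median interaction lay between 0.01 and 0.03 in each of the 5 bins. The slope is computed from the same values, so this model removes a linear trend over GC content by construction. The level medians are therefore no separate result. With the covariate 404 genes (3.71%) had an unadjusted p under 0.05 instead of 3049 (28%), and Acot4 was again the 1 gene called (0.00919%). After a spline on GC content was removed from each library instead, 1858 of 10803 genes had an unadjusted p under 0.05. The linear share of mitochondrially encoded transcripts moved in the same comparison, being 3.36 ± 0.40% in stimulated and 4.19 ± 0.22% in unstimulated Creld1 cKO libraries, and 3.72 ± 0.42% in stimulated and 3.27 ± 0.33% in unstimulated control libraries (SD, n = 3 each). The interaction of that share was -1.28 percentage points (exact permutation test, two-sided p = 0.025). Median log2 values per library moved too, with an interaction of 0.16 (exact p = 0.035), and scaling all libraries to a common median shifted the median interaction of all genes from 0.01 to -0.15. The part of library composition in the gene results was not tested beyond these values.

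**Figure D3:**
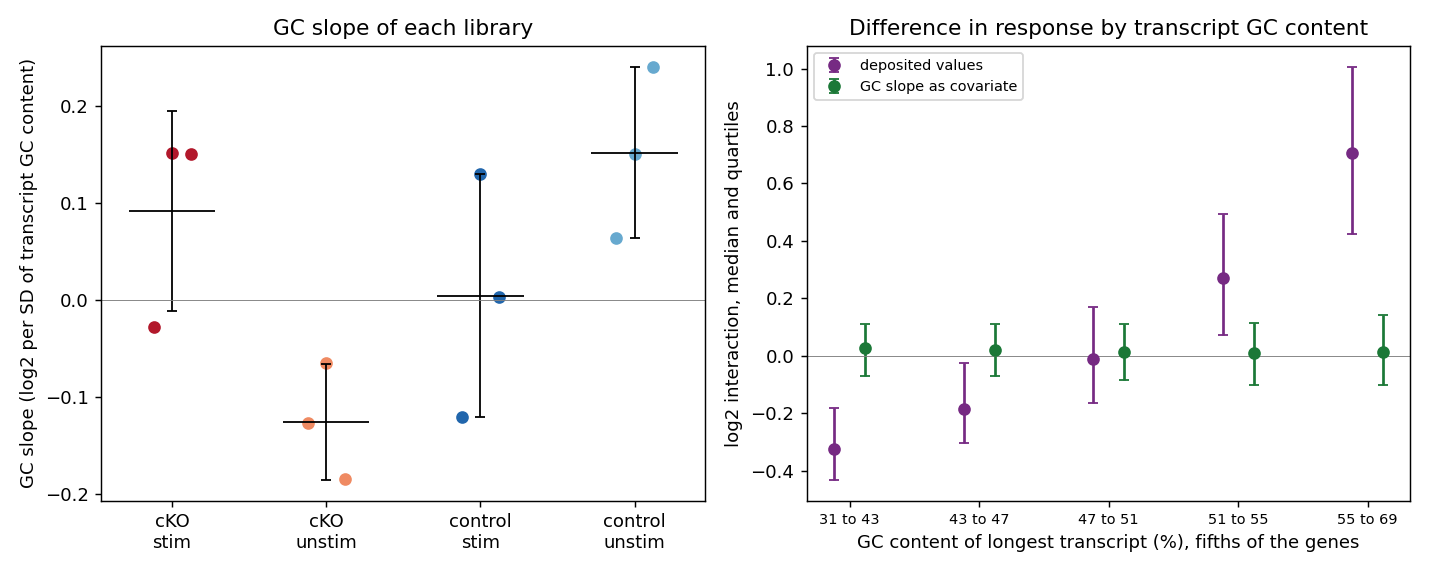
Left, GC slope of each of the 12 cultured libraries in log2 units per SD of transcript GC content, with group mean and SD (n = 3). Right, median and quartiles of the log2 interaction in 5 bins of transcript GC content. The medians run from -0.32 to 0.71 for the deposited values and lie between 0.01 and 0.03 once the slope is a covariate. That covariate removes a linear trend over GC content by construction.

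Calls at an adjusted p under 0.05 were counted in several fits. The number of genes called depended on whether the freshly isolated libraries shared in the estimate of the spread. The interaction values are the same in both fits. With the 12 cultured libraries alone 2373 genes (21.8%) were called, 1722 higher (15.8%) and 651 lower (5.99%). Leaving out library 3 of the freshly isolated Creld1 cKO cells gave 1657 genes, 1323 higher and 334 lower, while leaving out any other single library left 1. The median SD over genes was 0.24 in freshly isolated Creld1 cKO cells and between 0.105 and 0.156 in the other 5 groups. With the 12 cultured libraries and the GC slope together 0 genes were called at an adjusted p under 0.05. Of 84 genes followed through the fits, Acot4 alone was called over the 18 libraries. Without fresh Creld1 cKO library 3, 62 were called (limma adjusted p of at most 0.04995), and 61 with the 12 cultured libraries alone (at most 0.0498). Many of the 84 were picked for a small interaction p in the same libraries, so these counts follow from that choice. They are no separate result, and of all 10877 tested genes 1657 and 2373 were called in these fits. Among the genes described here, Acot2, Cd40lg, Cd69, Creld1, Dusp6, Egr1, Egr2, Egr3, Il2ra, Irf4, Irf7, Nfat5, Nr4a1, Tnf, Tnfrsf9 and Tnfsf8 were called in neither of these fits, and mt-Nd4l only in that of the 12 libraries (0.0331, against 0.0554 without the fresh library).

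Genes at a level of at least log2(100) with the smallest p for a higher response in Creld1 cKO cells, whose libraries did not overlap, all had an adjusted p of 0.166 in limma over the 18 libraries, 0.0417 without fresh Creld1 cKO library 3 and 0.0306 with the 12 cultured libraries alone. Mex3b, which encodes an RNA-binding protein, led them. Mex3b had 7.54, 7.81 and 7.83 in stimulated and 7.48, 7.35 and 7.34 in unstimulated Creld1 cKO cells, against 7.65, 7.71 and 7.21 in stimulated and 7.97, 8.09 and 8.16 in unstimulated control cells. Its interaction was 0.89 ± 0.19 and 0.65 with the GC slope in the model.

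Trib3, a pseudokinase gene induced by the transcription factor Atf4, had 6.12, 6.47 and 6.21 in stimulated and 6.12, 6.26 and 5.77 in unstimulated Creld1 cKO cells. In control cells it had 6.04, 5.96 and 5.61 after stimulated and 6.61, 7.04 and 7.30 after unstimulated culture. The unstimulated control libraries stood above the other 9. The response of Trib3 was 0.22 ± 0.21 in Creld1 cKO cells, which did not pass, whereas it fell by 1.12 ± 0.21 in control cells (limma adjusted p = 0.0316). Its interaction was 1.33 ± 0.30, or 0.80 with the GC slope.

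Other genes of this direction were Gys1 of glycogen synthesis (1.02 ± 0.23), Cox14, an assembly factor of cytochrome c oxidase (0.90 ± 0.21), the ubiquitin ligase gene Hectd3 (1.03 ± 0.25) and Por, which passes electrons to cytochrome P450 enzymes (1.00 ± 0.25). Bcr, Zfand3, Rims3 and Lrrc61 had interactions of 0.67, 0.67, 0.78 and 0.73. The 10 values stayed above 0 with the GC slope as a covariate, between 0.31 for Zfand3 and 0.80 for Trib3. None was called in that model, where each had a limma adjusted p of 0.9994. These genes were picked by their values in the same libraries, so the kept sign adds no support. After a spline on GC content was removed, Bcr turned to -0.04.

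In the other direction, Ptpn4, a tyrosine phosphatase gene, had 8.05, 8.09 and 8.09 in stimulated and 8.37, 8.79 and 8.30 in unstimulated Creld1 cKO cells, against 8.47, 7.95 and 8.31 in stimulated and 7.92, 8.02 and 7.75 in unstimulated control cells. The unstimulated groups did not overlap and the stimulated groups did. Its interaction was -0.76 ± 0.19 and -0.65 with the GC slope. The limma adjusted p of Ptpn4 was 0.166 over the 18 libraries, 0.0417 without fresh Creld1 cKO library 3 and 0.0317 with the 12 cultured libraries alone. Prkar2a, a regulatory subunit of protein kinase A, had -0.93 ± 0.24, the argonaute gene Ago3 -0.76 ± 0.19, the actin-binding cofilin gene Cfl2 -0.75 ± 0.19, and Pigc of GPI anchor synthesis -0.70 ± 0.19.

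Hspa4l, a chaperone gene of the Hsp110 family, and Crybg1 were called for a rise in control cells. Hspa4l had a response of 0.40 in Creld1 cKO and 1.10 in control cells, and an interaction of -0.70 ± 0.19, while Crybg1 had 0.17 and 0.46 and an interaction of -0.29 ± 0.08. Tmem230, the interferon-induced GTPase gene Tgtp1 and the adaptor gene Stap1 had interactions of -0.62, -0.64 and -0.52. All 10 genes of this direction stayed below 0 with the GC slope as a covariate, between -0.65 for Ptpn4 and -0.25 for Crybg1. None was called in that model, where each had a limma adjusted p of 0.9994. They too were picked by their values in the same libraries.

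**Figure D4:**
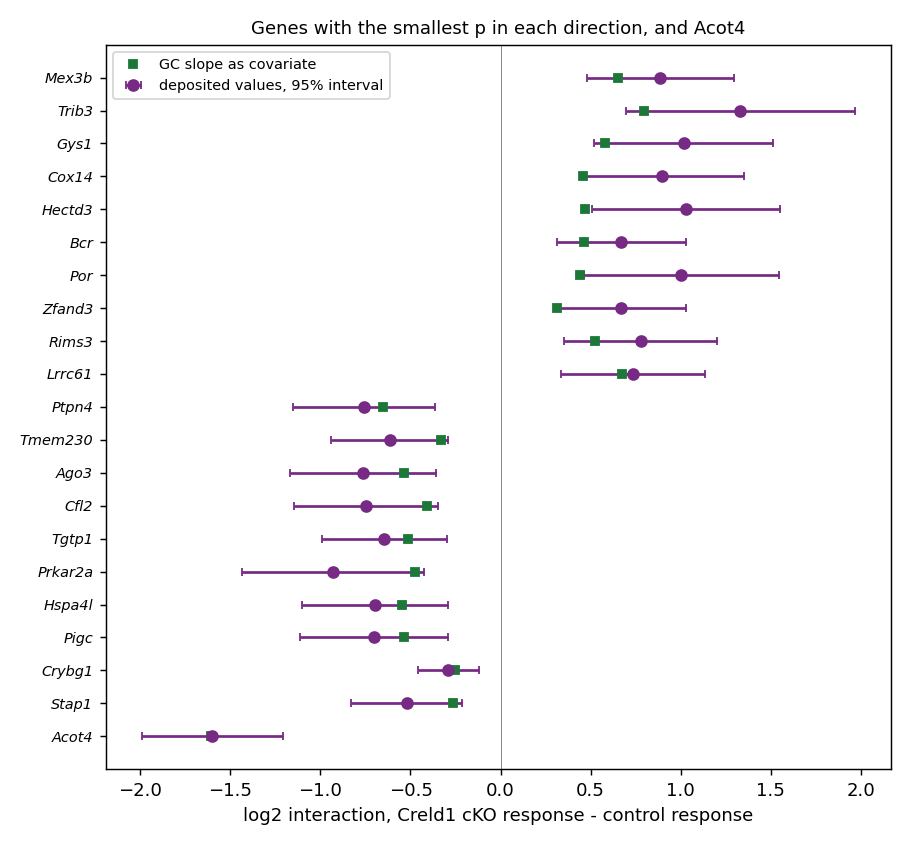
Log2 interaction with its 95% interval (horizontal axis, circles) for the 10 genes of smallest p in each direction and Acot4, and the value with the GC slope as a covariate (squares). Acot4 lies at -1.60 in one and -1.61 in the other, while the other 20 lie nearer to 0 with the covariate than without it.

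Signalling genes were counted by role, and 0 members of any list were called over the 18 libraries. Shares of members with an unadjusted p under 0.05 are given here and below beside those of all tested genes, 19.2% higher and 8.84% lower. In the receptor complex and proximal signalling, 6 of 39 tested genes had such a p for a higher (15.4%) and 5 for a lower response (12.8%), near the shares of all tested genes. Zap70, the kinase that binds the activated receptor, had 9.57, 10.13 and 10.14 in stimulated and 8.89, 9.03 and 8.57 in unstimulated Creld1 cKO cells, against 9.15, 10.14 and 9.77 in stimulated and 9.65, 9.94 and 10.10 in unstimulated control cells. Unstimulated Creld1 cKO libraries were the lowest 3 of the 12. Its interaction was 1.33 ± 0.51 (limma adjusted p = 0.166, or 0.0417 without fresh Creld1 cKO library 3) and 0.04 with the GC slope. Lck, the kinase upstream of Zap70, had 0.78 ± 0.33 and -0.03 with the slope, while Malt1, a protease of the NF-kB branch, had -0.41 ± 0.16 and the ubiquitin ligase gene Cbl -0.40 ± 0.14.

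Calcium entry, calcineurin and NFAT genes had a median interaction of -0.05, with 8 of 36 tested members higher (22.2%) and 3 lower (8.33%) at an unadjusted p under 0.05, near the 19.2% and 8.84% of all tested genes. Orai1, the pore of the calcium channel opened by store depletion, had 7.05, 7.86 and 8.07 in stimulated and 6.35, 6.61 and 6.24 in unstimulated Creld1 cKO cells, against 6.53, 7.95 and 7.09 in stimulated and 7.03, 7.79 and 7.87 in unstimulated control cells. As for Zap70, unstimulated Creld1 cKO cells held low values, 2 of the 3 being the lowest of the 12. The interaction of Orai1 was 1.63 ± 0.58 (limma adjusted p = 0.166, or 0.0431 without fresh Creld1 cKO library 3), and 0.23 with the GC slope. Homer3, a scaffold protein gene, had 1.33 ± 0.34 and 0.55 with the slope, the inositol trisphosphate receptor gene Itpr3 had 1.06 ± 0.40 and 0.06, and Nfatc1 had 0.65 ± 0.25 and 0.09. Nfat5, a family member that responds to tonicity, had -0.49 ± 0.19, and -0.15 with the slope.

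NF-kB genes had a median interaction of 0.40, with 12 of 25 higher (48%, beside 19.2% of all tested genes) and 2 lower (8%, beside 8.84%) at an unadjusted p under 0.05. Relb, a transcription factor subunit, had 1.32 ± 0.38, the inhibitor gene Nfkbia 1.04 ± 0.36 and the kinase gene Chuk -0.41 ± 0.14. Under the GC slope model these were 0.43, 0.19 and -0.10, and the list median was -0.04. Wnt and beta-catenin genes had a median of 0.24, with 9 of 29 higher (31%, beside 19.2%) and 2 lower (6.9%, beside 8.84%). Dvl1, which relays the signal from Wnt receptors, had 1.19 ± 0.44, Lef1, a transcription factor of the pathway, 0.36 ± 0.12, and Gsk3b, a kinase that marks beta-catenin for degradation, -0.44 ± 0.16. With the slope the median was -0.03.

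Of 25 cytokine and chemokine genes 21 were matched, of which 10 lay under the minimum level and 11 were tested. Tnf was called for stimulation in Creld1 cKO cells, where it rose by 1.25 ± 0.16 (limma adjusted p = 0.0019), against 0.78 ± 0.16 in control cells (adjusted p = 0.0628). Its interaction was 0.47 ± 0.23 (adjusted p = 0.190). Ltb, which encodes lymphotoxin beta, had 1.44 ± 0.58, and -0.04 with the GC slope, while Tnfsf8, the ligand of CD30, had -0.32 ± 0.14 and Cd40lg, the ligand by which T cells help B cells, -0.23 ± 0.11. Of the co-stimulatory and inhibitory receptor genes, 4 of 21 were higher (19%) and 2 lower (9.52%) at an unadjusted p under 0.05, near the 19.2% and 8.84% of all tested genes, among them Vsir, an inhibitory receptor gene, at 0.78 ± 0.28 and Cd28 at -0.43 ± 0.15.

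Cytosolic ribosomal protein genes had the highest median interaction of the lists, 0.52, with 34 of 76 higher (44.7%, beside 19.2% of all tested genes) and 1 lower (1.32%, beside 8.84%) at an unadjusted p under 0.05. Rpl29 had 11.01, 11.81 and 11.85 in stimulated and 10.52, 10.78 and 10.23 in unstimulated Creld1 cKO cells, against 10.72, 11.84 and 11.21 in stimulated and 11.46, 11.86 and 12.10 in unstimulated control cells. The control groups overlapped and the Creld1 cKO groups did not. The interaction of Rpl29 was 1.59 ± 0.52 (limma adjusted p = 0.166, or 0.0417 without fresh Creld1 cKO library 3), and 0.29 with the GC slope, and that of Rps29 1.61 ± 0.51 and 0.37. Many ribosomal protein genes have processed pseudogenes of near-identical sequence, so their counts are uncertain. The list median was 0.01 with the GC slope and 0.26 after the spline.

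Mitochondrially encoded genes moved the other way. All 13 had an interaction below 0, with a median of -0.49, whereas 51.2% of all tested genes lay above 0. Libraries did not overlap for 12 of the 13, beside 25.5% of all tested genes in that direction. The median GC content of the list was 37.12%, within the lowest bin, where 7.42% of all genes had an interaction above 0. The median response of the 13 genes was -0.30 in Creld1 cKO and 0.21 in control cells. For mt-Nd4l, a subunit of complex I, the unadjusted p was under 0.05 (-0.60 ± 0.27, limma adjusted p = 0.171). Under the model with the GC slope all 13 lay above 0, with a median of 0.11. Nuclear genes of oxidative phosphorylation had a median of 0.21, with 27 of 75 higher (36%, beside 19.2% of all tested genes) and 2 lower (2.67%, beside 8.84%) at an unadjusted p under 0.05, among them Cox7c (1.15 ± 0.36) and Uqcrq (1.27 ± 0.40), and a median of 0.03 with the slope.

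Glycolysis genes had a median of 0.34, with 8 of 24 higher (33.3%) and 1 lower (4.17%) at an unadjusted p under 0.05. Atf4 target genes had one of 0.37, with 6 of 24 higher (25%) and 0 lower, beside 19.2% and 8.84% of all tested genes. In these lists Pfkl, a phosphofructokinase gene, had 1.10 ± 0.39, Eno3, an enolase gene, 0.78 ± 0.20 and Hif1a, which drives glycolytic genes, -0.44 ± 0.16. Ddit3, a stress-induced transcription factor, had 0.66 ± 0.27. Both medians, with the GC slope in the model, were -0.03.

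Other lists lay nearer to the median of all genes, among them cell cycle entry and DNA replication (-0.07, with Pold1 at 1.52 ± 0.46 and Mcm6 at -0.40 ± 0.11), cell death and survival (-0.004, with the p53 target gene Bbc3 at 1.95 ± 0.67 and the caspase inhibitor gene Xiap at -0.50 ± 0.21), cholesterol synthesis (0.01) and heat shock (-0.04). Interferon-stimulated genes had a median of -0.19, with 3 of 49 higher (6.12%, beside 19.2% of all tested genes) and 9 lower (18.4%, beside 8.84%) at an unadjusted p under 0.05. Ifi213 had -0.51 ± 0.17 and Irf7, a transcription factor of the interferon response, 0.60 ± 0.22. With the GC slope the medians of the lists named so far in this paragraph lay between -0.11 and 0.04. Scaling to a common median shifted every list median by about -0.157, the same as for all genes. By that shift 11 of the 19 list medians above 0, among lists of at least 10 tested members, turned below 0, among them those of the receptor complex and proximal signalling (-0.04), cytokines (-0.03), co-stimulatory and inhibitory receptors (-0.03), ribosome biogenesis (-0.02) and cholesterol synthesis (-0.15).

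Over the 12 cultured libraries alone, members of these lists were called too, to be read beside 15.8% higher and 5.99% lower of all tested genes. Called members were 36 higher and 1 lower of 76 ribosomal protein genes, 10 higher and 1 lower of 25 NF-kB genes, 9 higher and 1 lower of 24 glycolysis genes, and 24 higher and 2 lower of 75 nuclear oxidative phosphorylation genes. The early receptor-induced genes gave 5 higher and 0 lower of 32, and the mitochondrially encoded genes 0 higher and 10 lower of 13. These shares come from the same interaction values, with the GC slope left out.

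**Figure D5:**
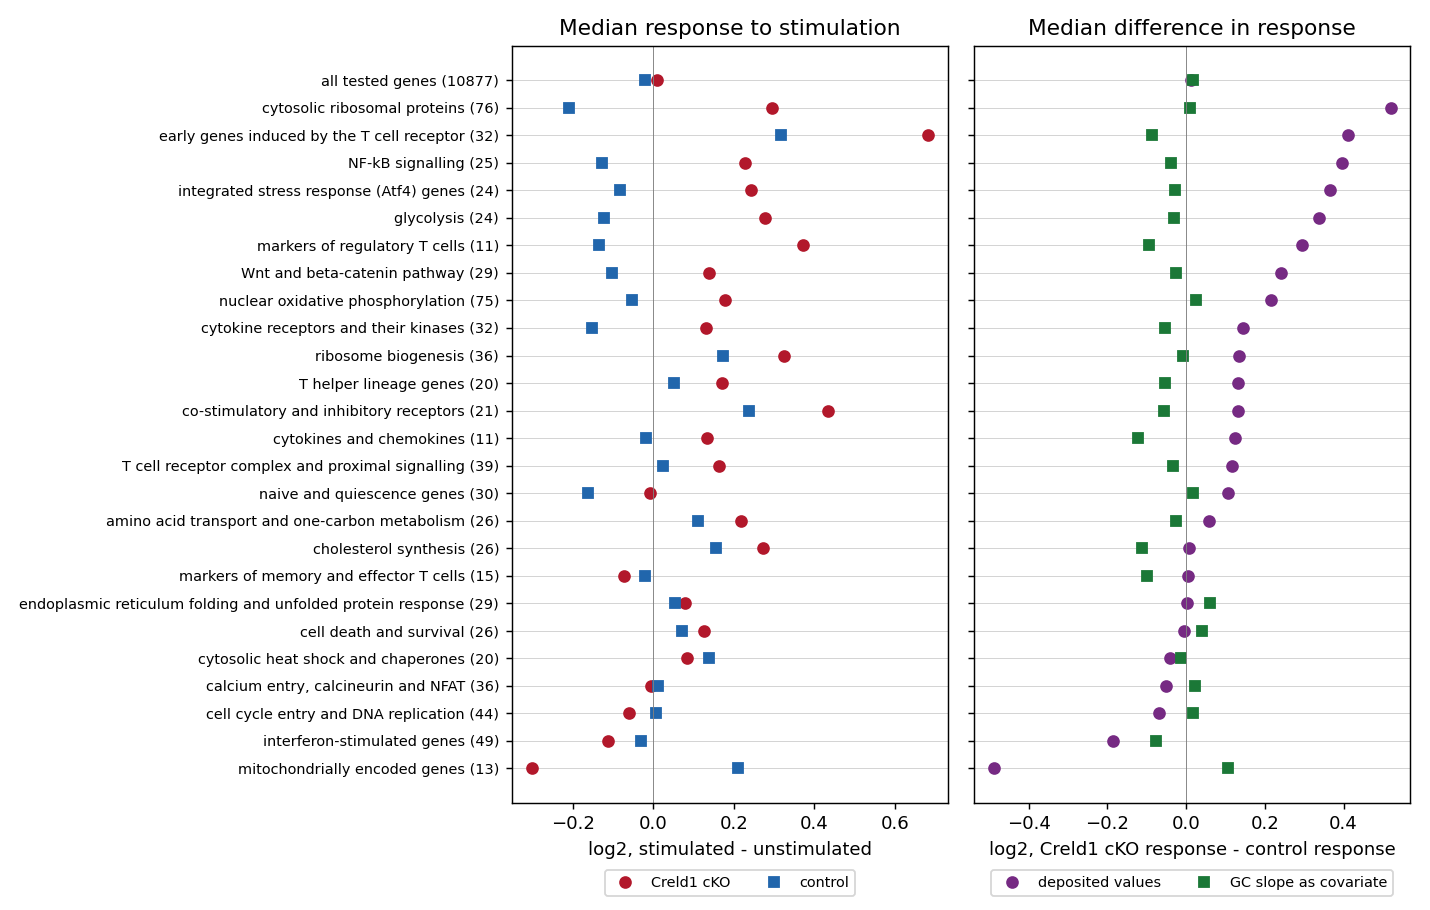
Median log2 response in Creld1 cKO and control cells (left) and median log2 interaction for the deposited values and for the model with the GC slope (right), for lists with at least 10 tested members, whose number is in brackets. The lists spread from -0.49 to 0.52 on the right for the deposited values and from -0.12 to 0.11 with the covariate.

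Markers of other cells were compared as a share of the linear sum of each library. Memory and effector T cell markers (15 of 22 at the minimum level) summed to 0.174% to 0.184% in stimulated and 0.198% to 0.204% in unstimulated Creld1 cKO libraries, and to 0.172% to 0.186% in stimulated and 0.168% to 0.19% in unstimulated control libraries. Regulatory T cell markers (11 of 13) summed to 0.0244% to 0.028%, 0.0199% to 0.0203%, 0.0207% to 0.0266% and 0.0213% to 0.025% in the same order. In both lists unstimulated Creld1 cKO libraries lay outside the range of the other groups, above it for memory markers and below it for regulatory markers. The regulatory list includes Il2ra and Tnfrsf4, which are also early receptor-induced genes, so its sum does not stand for regulatory T cells alone. CD8 T and NK cell markers (5 of 16 at the minimum) and B cell markers (4 of 16) reached at most 0.00778% and 0.00166% in any of the 12 libraries. Myeloid markers (4 of 15) ran from 0.0144% to 0.0161% and 0.0171% to 0.0184% in stimulated and unstimulated Creld1 cKO libraries, and from 0.0139% to 0.016% and 0.0157% to 0.0169% in control libraries, so that unstimulated Creld1 cKO libraries were again the highest. Red cell and platelet markers (1 of 10) reached at most 0.00343%. The defining markers Ms4a1 of B cells, Cd8a of cytotoxic T cells and Hba-a2 of red cells lay at or under log2 values of 2.64, 1.92 and 0.78 in the 12 libraries. Their part in the results was not tested.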

How the data were processed

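Expression values per gene were taken as deposited, normalized between libraries by the authors and on a log2 scale, from -1.36 to 17.2. The sources used here do not give the normalization method, base 2 was read off the values, and the depth per library is unknown, so no counting interval is given. The submitters' processing notes list CASAVA 1.8, HISAT2 2.1.0, SAMtools 1.4, Partek 6.6, DESeq2 and mm10, with no role or order. Per the labels' protocols, libraries were made from 10 ng of RNA with a TruSeq version 2 kit, which does not mark strand, and read as 75 bp single ends. Reads of overlapping or antisense genes cannot be told apart. Titles and characteristics gave the groups, and 0 columns belonged to no sample.

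A model of 6 group means was fitted to 18 libraries in limma 3.58.1 (R 4.3.3) by empirical Bayes moderation with a trend, with 12 residual degrees of freedom (15.7 with the prior). P-values were two-sided and adjusted by Benjamini-Hochberg over the 10877 genes tested, with a threshold of 0.05. The model was tested on simulated data. Transcript GC content came from GENCODE M21 (GRCm38) and was had for 10803 tested genes (99.3%). Library measures were tested by exact permutation of genotype within each culture condition. The null of this test is no genotype difference in either condition, so its p-values do not refer to the interaction alone. Named genes were Creld1, the genes of smallest p or largest change at a group mean of at least log2(100), and members of 29 lists. The members, the lists and the GC slope were chosen with earlier results of these data known. Other settings were filters, pseudocounts of 5 and 0.5, scalings, library weights, GC corrections, a block of library numbers and left-out libraries. The fits of 12 libraries with the GC slope, of gene-by-gene weights and those leaving out a single fresh library were added after seeing the data. The fit of the 12 cultured libraries alone was planned.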

Additional observations from a re-analysis of the deposited data

Results flagged for a closer look

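The response of Acot4 to stimulation differed between the genotypes by the interaction term of the model, with a value of -1.60 on the log2 scale. Its response was -1.02 in Creld1 cKO and 0.58 in control cells.

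The GC slope of the libraries changed by a different amount on stimulation in Creld1 cKO and control libraries. Its interaction was 0.36 by the exact permutation test over 12 libraries (p = 0.03). The slope was chosen with earlier results of these data known, so this is not an independent test. Nor is it a test of the interaction alone, since its null is no genotype difference in either culture condition. The mean slope was 0.091 in stimulated and -0.13 in unstimulated Creld1 cKO libraries, and 0.0040 in stimulated and 0.15 in unstimulated control libraries. The linear share of mitochondrially encoded transcripts likewise had an interaction of -1.28 percentage points (exact permutation test, p = 0.025).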

How the results depend on the processing

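Interaction calls, 1 in all, numbered 2373 with 12 cultured libraries, 3 without a filter, 7103 with library weights (range 0.012 to 14.2, without convergence), 5905 with gene-by-gene weights, and 0 at a minimum of 50, where Acot4 is not tested, with the replicate block and GC slope together, where Acot4 had -1.67 and an adjusted p of 0.055, and with 12 libraries and the GC slope, where it had -1.54 (0.556). Pseudocounts, quantile scaling, a common median, no trend, the replicate block, the GC slope and the GC spline each gave 1. Calls for stimulation in Creld1 cKO cells (31) numbered 882 with 12 libraries, 6169 with library weights, 5766 with gene-by-gene weights, 153 with the replicate block, 72 with the GC slope, 139 with both, 183 with the GC spline and 2 with 12 libraries and the GC slope. Control calls (38) numbered 151, 6301, 2697, 41, 321, 240, 131 and 365 in the same order of settings, and 60 with quantile scaling. Leaving out single libraries gave 1 to 1657 interaction calls, 11 to 336 Creld1 cKO calls (11 without unstimulated Creld1 cKO replicate 3) and 4 to 124 control calls (4 without stimulated control replicate 3), a Creld1 interaction of 0.45 to 0.82 and a GC slope interaction of 0.30 to 0.43. The counts of 1657, 336 and 124 came without fresh Creld1 cKO replicate 3. The interaction of Creld1 passed with library weights (0.65) and gene-by-gene weights (0.66). The cause of these changes was not tested. Numbers in the titles were not used to pair the libraries in the main model, and it is not known whether they do. Same-numbered deviations correlated between -0.257 and 0.65 (median 0.084, 9 of 18 over 0.1), against a median of -0.0671 for other numbers. Moreover, 9 of 12 libraries correlated best with their own number, which is a hint from the data and not the design. Interactions took the other sign as follows. With quantile scaling Tnfrsf9 had -0.050 and Dusp6 -0.15, with a common median Dusp6 -0.084, with library weights Tnfrsf9 -0.45 and Dusp6 -0.13, and with gene-by-gene weights Tnfrsf9 -0.30 and Dusp6 -0.095. With the GC slope Creld1 had -0.037, Egr2 -0.22, Tnfrsf9 -0.26, Sh3bp2 -0.0019, Nr4a1 -0.33, Junb -0.25, Ier2 -0.13, Ltb -0.040, Lck -0.034 and mt-Nd4l 0.043. With the replicate block and the GC slope Creld1 had -0.090, Egr2 -0.040, Tnfrsf9 -0.20, Nr4a1 -0.13, Junb -0.027, Ier2 -0.034, Il2ra 0.23, Cd69 0.18, Ltb -0.14, Zap70 -0.018, Lck -0.028 and mt-Nd4l 0.073. With the GC spline Creld1 had -0.12, Bcr -0.038, Egr1 -0.078, Sorcs2 -0.051, Il2ra 0.083, Cd69 0.24, Ccnd3 -0.12 and Klf2 -0.43. With 12 libraries and the GC slope Acot2 had -0.078, Creld1 -0.39, Egr1 -0.22, Egr2 -0.71, Egr3 -0.52, Tnfrsf9 -0.86, Sh3bp2 -0.77, Rragd 0.19, Nr4a1 -0.51, Junb -0.33, Ier2 -0.37, Nab2 -0.13, Myc -0.25, Dusp6 -0.14, Tnf -0.049, Orai1 -0.22, Nfatc1 -0.15, Dvl1 -0.12, Nfkbia -0.00083, Cox7c -0.077, Uqcrq -0.024, Rps29 -0.047, Phgdh -0.033, Id3 -0.53, Klf2 -0.092 and Fasn -0.0087. Leaving out single libraries gave -0.28 to 0.55 for Tnfrsf9, -0.36 to 0.17 for Il2ra, -0.42 to 0.10 for Irf4 and -0.034 to 0.18 for Dusp6.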
